A study of Mus musculus with 6 samples.

Results

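Lipid droplets are stores of triacylglycerol enclosed by a phospholipid layer that carries coat proteins and lipases. The 10 genes described here code for droplet coat proteins (Plin2, Plin3, Plin4, Plin5 and Cidec), for lipases and a lipase inhibitor (Pnpla2, Lipe and G0s2) and for the acyltransferases that complete triacylglycerol (Dgat1 and Dgat2). They were taken by name, and all 10 were among the 43074 gene names measured in each library. Their RNA was compared in soleus, a postural hindlimb muscle, between 3 StarD7 mKO libraries and 3 wild type (WT) libraries. The abbreviation mKO is not spelled out and is read here as a knockout of Stard7 in muscle, and the WT mice are called control in the series text, which does not say whether they carry a floxed allele. The labels give genotype and tissue, while the Cre driver, age and sex were not analysed here. The series describes 3 mice per group, and since no label ties a library to an animal, p-values measure the spread between these samples. StarD7 is a lipid transfer protein that carries phosphatidylcholine to mitochondria.

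In muscle fibres, fatty acids are esterified to triacylglycerol at the endoplasmic reticulum, held in small droplets often placed beside mitochondria, and released again by lipases for oxidation. Adipose triglyceride lipase, coded by Pnpla2, starts this release. It is activated by the protein of Abhd5 and inhibited by that of G0s2, and perilipins on the droplet surface limit its access. Cidec and Plin1 are known mainly from white adipocytes, where Cidec drives the fusion of droplets into large ones.

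Recovered read totals lay between 42928382 and 47404691 in mKO and between 47171045 and 51287715 in WT. Stard7 stood at 21.8, 21.3 and 34.6 TPM (length-scaled transcript abundance with a fixed sum per library) in mKO libraries, against 87.5, 95.4 and 94.99 TPM in WT libraries, so the groups did not overlap for the gene that was deleted (log2 fold change −1.83, SE 0.16, limma adjusted p = 0.00585). Mitochondrially encoded genes held 46.8% to 48.9% of all TPM in mKO and 42.1% to 45.1% in WT. Because of the fixed sum, this share bears on the value of each nuclear gene. All 10 fast fibre markers were lower in each mKO library than in any WT library, as were 10.3% of all genes tested. The median log2 fold change of the 10 was −2.33, and 4 of them were called lower, against 0.423% of all genes tested. These 4 were Mybpc2 (−6.73), Pvalb (−5.87), Actn3 (−4.08) and Tnnc2 (−0.49). None of 8 slow fibre markers was called (median 0.25), against 0.52% of all genes tested. The part of fibre type in the values below was not tested. Markers of skeletal muscle were abundant in all libraries, with Acta1 between 33503 and 35547 TPM in mKO and between 37200 and 40601 TPM in WT. Of the 7 such markers, 6 had a log2 fold change below 0 and 1 above, with a median of −0.12. In 3 of the 7, Acta1 among them, each mKO library lay below every WT library, as in 10.3% of all genes tested. By limma 0 of the 7 were called, against 0.52% of all genes tested.

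None of the 10 droplet genes passed the test between genotypes. By limma on log2(TPM + 1), 0 of 10 had an adjusted p under 0.05, against 0.52% of the 12301 genes tested. At an unadjusted p under 0.05 there was 1, G0s2, where 10.7% of all tested genes reached that level. In none of the 10 did the 3 mKO libraries lie all above or all below the 3 WT libraries, while 16% of all tested genes were separated in this way, 5.67% with mKO higher and 10.3% with mKO lower. Of the 10, 4 had a log2 fold change above 0 and 6 below, with a median of −0.07 beside −0.01 over all genes tested. Their median change without sign was 0.11, beside 0.08 over all genes. Limma-voom on recovered reads, which could be run on 9 of the 10, also called 0 of them, against 0.821% of 11204 genes, and 2 of the 9, G0s2 and Dgat2, had an unadjusted p under 0.05, against 11.5% of genes. With mitochondrially encoded genes left out, limma called 0 of the 10, and 3, G0s2, Plin2 and Dgat2, had an unadjusted p under 0.05, where 19.3% of 13502 genes did.

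**Figure D1:**
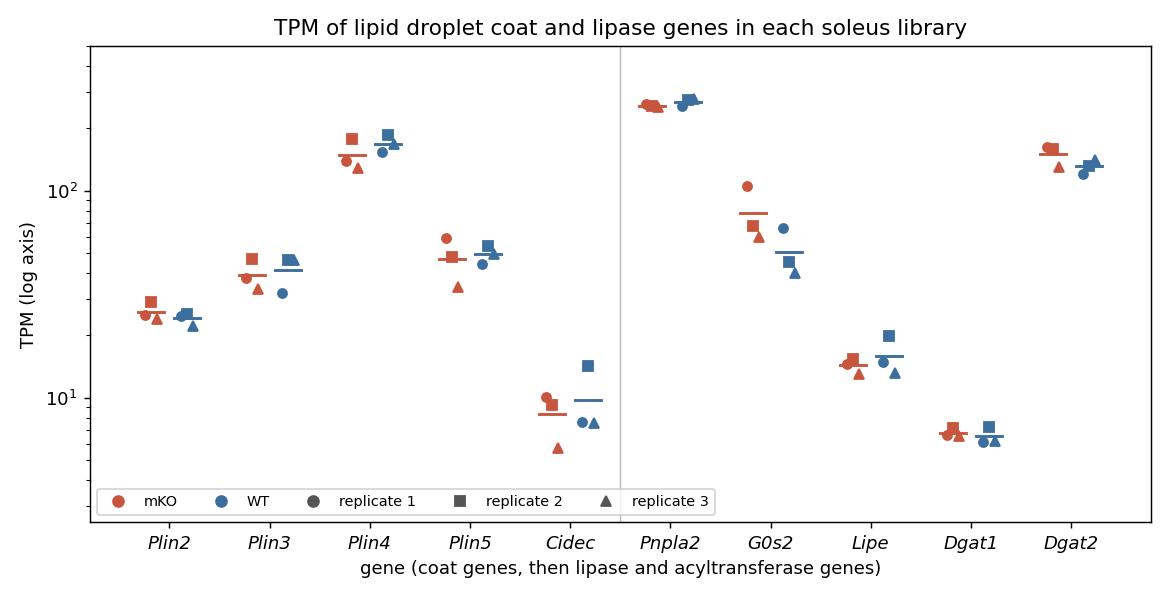
TPM (log axis) of the 10 genes in each library, mKO to the left of WT, with a marker shape for each replicate number and a bar at each group's mean (n = 3 each). The groups overlap for each of the 10 genes, and G0s2 shows the widest distance between means, 77.7 TPM in mKO and 50.3 TPM in WT.

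The order of levels ran from the lipase Pnpla2 at the top to Dgat1 at the bottom, and since TPM is scaled by gene length it can be compared between genes. Over the 6 libraries, Pnpla2 averaged 263.0 TPM, which placed it at rank 292 of 12301 tested genes. Plin4 (158.4 TPM) and Dgat2 (140.9 TPM) came next and did not differ beyond their spread, with ranges of 128.9 to 184.8 TPM and 120.5 to 163.2 TPM. G0s2 (64.0 TPM), Plin5 (48.1 TPM) and Plin3 (40.4 TPM) followed with overlapping ranges. Plin2 (25.1 TPM) lay apart, its highest library at 29.0 TPM standing below the lowest of Plin3 at 32.2 TPM and its lowest at 22.1 TPM above the highest of Lipe at 19.9 TPM. Lipe (15.1 TPM), Cidec (9.04 TPM) and Dgat1 (6.61 TPM) closed the order, Cidec overlapping both of its neighbours. Cidec had 211 to 551 recovered reads per library and Dgat1 398 to 474, which give counting errors of 6.88% and 5.01% at the lowest library, and each of the other 7 genes with recovered reads had at least 759. For Dgat1 counting alone, with every read taken as independent, is thus close to the coefficient of variation in mKO, 5.05%. It is below that in WT, 9.57%, while for Cidec it is far below the 27.8% in mKO and 39.0% in WT.

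Among the perilipins, Plin4 made up most of the RNA. Plin4 codes for a perilipin with long amphipathic repeats that is found in adipocytes and striated muscle. It measured 138.5, 177.2 and 128.9 TPM in mKO libraries and 153.0, 184.8 and 168.2 TPM in WT libraries. The mKO libraries included both the lowest value and the second highest, so the groups overlapped. The log2 fold change was −0.19 (SE 0.12, 95% interval −0.47 to 0.08, adjusted p = 0.638, limma). It rested in part on single libraries, at −0.33 without mKO replicate 2 (unadjusted p = 0.00659, adjusted p = 0.269, limma) and −0.10 without mKO replicate 3, and it stayed below 0 in the 12 other settings that could be run. Exons of Plin4 overlap those of Hdgfl2, a gene on the opposite strand that averaged 16.1 TPM, in the GENCODE M21 annotation. The sources used here do not say whether counting used strand, so part of the value of Plin4 could come from Hdgfl2. Of summed perilipin TPM (Plin1 to Plin5), Plin4 took 55.8% ± 3.26 in mKO and 58.3% ± 0.816 in WT (SD, n = 3 each).

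Plin5, the perilipin of oxidative tissues that tethers droplets to mitochondria and restrains lipolysis, measured 58.8, 47.9 and 34.2 TPM in mKO libraries and 44.0, 54.2 and 49.7 TPM in WT libraries. Both the highest and the lowest of the 6 values were in mKO, whose coefficient of variation was 26.2%, against 10.4% in WT. Its change was −0.10 on the log2 scale (SE 0.18, 95% interval −0.50 to 0.31, adjusted p = 0.902, limma), and it lay above 0 without mKO replicate 3 (0.11) and with mitochondrially encoded genes left out (0.02). The ratio of Plin4 to Plin5 was 2.36, 3.70 and 3.77 in mKO libraries and 3.48, 3.41 and 3.39 in WT libraries. The WT libraries were nearly alike in this ratio, and mKO replicate 1 stood below all others. Plin5 took 22.1% of perilipin TPM in that library and between 15.2% and 17.1% in the other 5.

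Plin2, which coats droplets in most cell types and whose protein is stable only when bound to lipid, measured 25.0, 29.0 and 23.9 TPM in mKO libraries and 24.8, 25.5 and 22.1 TPM in WT libraries. The values were close in all 6 libraries, with mKO replicate 2 the highest. The difference was 0.10 on the log2 scale (SE 0.09, 95% interval −0.10 to 0.30, adjusted p = 0.765, limma). It was 0.0180 without mKO replicate 2, and 0.22 with mitochondrially encoded genes left out (unadjusted p = 0.0209, adjusted p = 0.202, limma), where the median of all genes was 0.09. Plin3, a cytosolic protein that moves onto newly formed droplets, measured 37.7, 46.5 and 33.5 TPM in mKO libraries and 32.2, 46.1 and 46.5 TPM in WT libraries. Its highest mKO and highest WT library were nearly equal. Its log2 fold change was −0.08 (SE 0.16, 95% interval −0.45 to 0.30, adjusted p = 0.916, limma) and crossed 0 in 4 of 13 other settings. Plin3, Plin4 and Plin5 lie on chromosome 17 on the same strand, Plin4 and Plin5 as direct neighbours among coding genes, while Plin2 lies on chromosome 4.

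Pnpla2, the lipase that releases the first fatty acid from triacylglycerol, was the steadiest of the 10 genes. It measured 263.0, 255.3 and 253.1 TPM in mKO libraries and 254.9, 274.3 and 277.5 TPM in WT libraries. WT replicate 1 lay among the mKO values, and the coefficient of variation was 2.03% in mKO and 4.54% in WT. The log2 fold change was −0.06 (SE 0.05, limma adjusted p = 0.725), and its 95% interval left a fold between 0.882 and 1.04. With mitochondrially encoded genes left out the value was 0.05. Abhd5, which codes for the activator of this lipase, averaged 19.4 ± 1.13 TPM in mKO and 18.1 ± 1.11 TPM in WT (SD, n = 3 each) and was not called (adjusted p = 0.718, limma).

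G0s2, which codes for the inhibitor of the Pnpla2 lipase, had the largest fold change of the 10. It measured 105.7, 67.3 and 59.97 TPM in mKO libraries and 65.7, 45.1 and 39.97 TPM in WT libraries. The highest 2 values were in mKO and the lowest 2 in WT, but mKO replicate 3 lay below WT replicate 1, so the groups overlapped. The mean was 77.7 ± 24.6 TPM in mKO and 50.3 ± 13.6 TPM in WT (SD, n = 3 each), a ratio of 1.55. The log2 fold change was 0.61 (SE 0.24, 95% interval 0.06 to 1.15), with an unadjusted p of 0.0334 and an adjusted p of 0.412 by limma, so it did not pass. Its value was above 0 in each of the 13 other settings, from 0.36 without mKO replicate 1 to 0.81 without WT replicate 1. In 4 of them the unadjusted p was not under 0.05, and in 1 the adjusted p was under 0.05. The ratio of Pnpla2 to G0s2, a description with no test, was 2.49, 3.79 and 4.22 in mKO libraries and 3.88, 6.08 and 6.94 in WT libraries. One mKO library, replicate 3, exceeded the lowest WT library in this ratio.

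**Figure D2:**
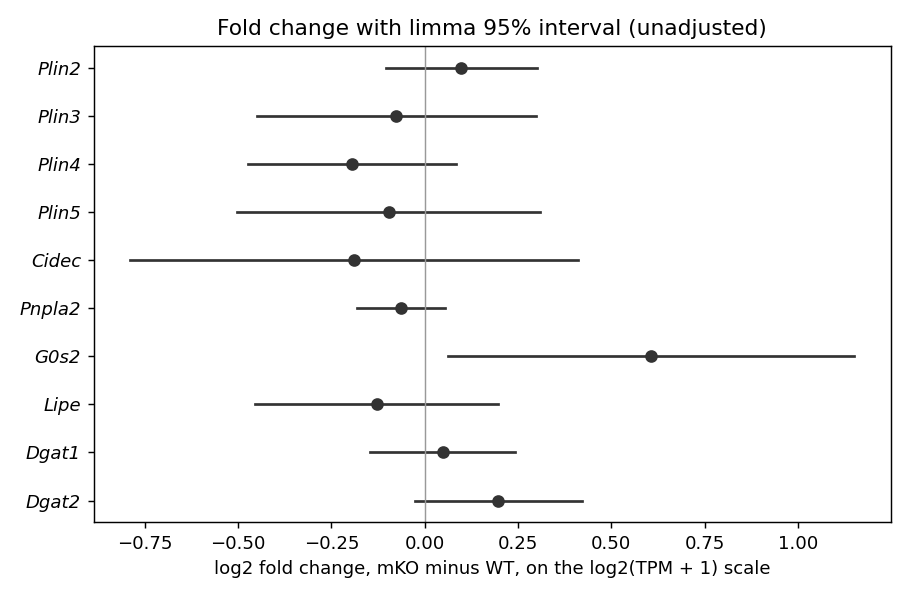
Log2 fold change, mKO minus WT, of each gene on the log2(TPM + 1) scale (point) with limma's unadjusted 95% interval (line). The interval of G0s2, 0.06 to 1.15, lies above 0, and those of the other 9 genes span 0, with Pnpla2 the narrowest and Cidec the widest of these 9.

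Lipe codes for hormone-sensitive lipase, which acts mainly on diacylglycerol. It measured 14.5, 15.4 and 13.003 TPM in mKO libraries and 14.8, 19.9 and 13.1 TPM in WT libraries. WT replicate 2 was the highest and the other 5 lay close together. The difference on the log2 scale was −0.13 (SE 0.14, 95% interval −0.45 to 0.20, adjusted p = 0.814, limma), and 0.03 without WT replicate 2. Mgll, whose product splits monoacylglycerol and completes lipolysis, averaged 56.7 ± 3.77 TPM in mKO and 60.1 ± 2.81 TPM in WT (SD, n = 3 each), with no call (adjusted p = 0.719, limma).

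Both acyltransferases that add the last fatty acid to diacylglycerol were measured, Dgat2 at far higher RNA levels than Dgat1. Dgat2 measured 163.2, 159.3 and 129.9 TPM in mKO libraries and 120.5, 131.6 and 140.8 TPM in WT libraries. The highest 2 values were in mKO, and mKO replicate 3 lay below the highest 2 WT values. On the log2 scale the difference was 0.20 (SE 0.10, 95% interval −0.03 to 0.42, unadjusted p = 0.0757, adjusted p = 0.539, limma). It was 0.30 without mKO replicate 3 (unadjusted p = 0.00459, adjusted p = 0.172, limma) and 0.32 with mitochondrially encoded genes left out. Dgat1 measured 6.57, 7.13 and 6.51 TPM in mKO libraries and 6.08, 7.21 and 6.18 TPM in WT libraries. The highest and the lowest Dgat1 value were both in WT, and the log2 fold change was 0.05 (SE 0.08, 95% interval −0.15 to 0.24, adjusted p = 0.894, limma). TPM of Dgat2 was 22.4 ± 2.45 times that of Dgat1 in mKO and 20.3 ± 2.30 times in WT (SD, n = 3 each).

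Cidec measured 10.02, 9.21 and 5.68 TPM in mKO libraries and 7.60, 14.2 and 7.56 TPM in WT libraries. WT replicate 2 was the highest and mKO replicate 3 the lowest, and the groups overlapped. The mean was 8.30 ± 2.31 TPM in mKO and 9.78 ± 3.81 TPM in WT (SD, n = 3 each), so each group's SD exceeded the difference of the means. The log2 fold change was −0.19 (SE 0.26, 95% interval −0.79 to 0.41, adjusted p = 0.857, limma), and it was above 0 without WT replicate 2 (0.08) or without mKO replicate 3 (0.03). WT replicate 2 was also the highest of the 6 libraries for 8 of 11 adipocyte markers. The other 3 peaked elsewhere, Adig and Adrb3 in mKO replicate 1 and Car3 in WT replicate 1, and WT replicate 2 was the lowest library for Adig. Adipoq, the adipocyte hormone adiponectin, measured 13.8, 12.7 and 13.1 TPM in mKO libraries and 15.9, 27.7 and 10.7 TPM in WT libraries. Plin1, the perilipin of adipocyte droplets, measured 5.996, 4.86 and 4.11 TPM in mKO libraries and 4.33, 9.81 and 3.60 TPM in WT libraries. Both are among the 8 that peaked in WT replicate 2, as did Cidec and Lipe. Plin4 and Dgat1 also had their highest value there, which makes 4 of the 10 coat and lipase genes. Both were close to their value in mKO replicate 2, Plin4 at 184.8 against 177.2 TPM and Dgat1 at 7.21 against 7.13 TPM. In WT replicate 2 were also the highest values of 7 of 10 fast fibre markers and 0 of 8 slow fibre markers. All 10 fast fibre markers were lower in each mKO library than in any WT library, so their highest value could only be in WT. The share over all genes was not counted.

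The summed TPM of the 11 adipocyte markers ranged from 1276 to 1526 in mKO and from 1398 to 2420 in WT, most of it from Car3, which muscle fibres also express. Without Car3 the sum was 296, 324 and 254 TPM in mKO libraries and 295, 426 and 249 TPM in WT libraries, with WT replicate 2 the highest. None of the 11 was listed at 0 in any library. Of the 10 that passed the filter on low values 0 were called, and 1, Car3, had an unadjusted p under 0.05. Over all tested genes these shares were 0.52% and 10.7%. Adrb3, which did not pass the filter and was not tested, measured 0.723, 0.517 and 0.607 TPM in mKO libraries and 0.384, 0.439 and 0.285 TPM in WT libraries. Of the 5 brown adipocyte markers, Ucp1 was listed at 0 in 5 of 6 libraries and Elovl3 in 4. Cidea (7.13 to 15.8 TPM), Ppargc1a (19.8 to 32.2 TPM) and Dio2 (2.58 to 5.25 TPM) were above 0 in every library. The part of fat cells in the values of Cidec and Lipe was not tested, and in whole muscle fewer cells of a type and less RNA per cell cannot be told apart. The ratio of Cidec to Plin1 was 1.67, 1.89 and 1.38 in mKO libraries and 1.76, 1.45 and 2.10 in WT libraries. Its relative range was narrower than that of either gene. The ratio of Cidec to Adipoq ran from 0.434 to 0.727, also relatively narrower than either gene. That of Lipe to Adipoq ran from 0.720 to 1.22, a wider relative range than that of Lipe and a narrower one than that of Adipoq. These ratios are descriptions with no test.

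**Figure D3:**
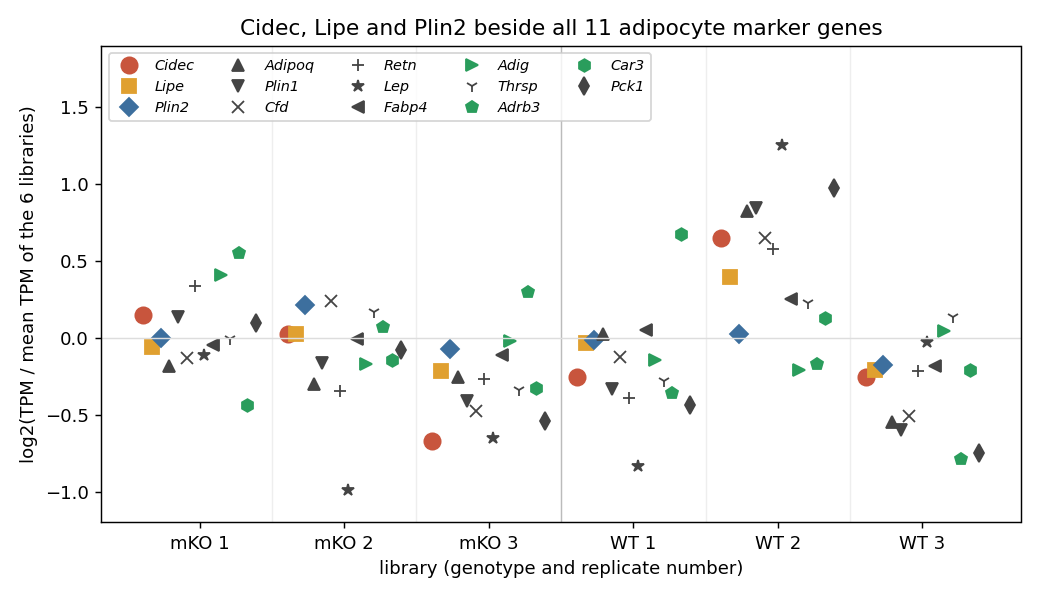
Level of Cidec, Lipe, Plin2 and all 11 adipocyte marker genes in each library, as log2 of TPM over the mean TPM of the 6 libraries, with the 8 markers that peak in WT replicate 2 in grey and the other 3 in green. In WT replicate 2 Cidec (14.2 TPM) and Lipe (19.9 TPM) have their highest value, Plin2 (25.5 TPM) stays near its mean, and Adig and Adrb3 lie below theirs.

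Cidec and G0s2 were the 2 genes of the 10 whose log2(TPM + 1) spanned at least 1 over the libraries. Among 7715 tested genes with a mean of at least 5 TPM, the libraries of Cidec were followed most closely by Mrm1 (Pearson r = 0.99), Med27 (r = 0.99) and Smarcc2 (r = 0.98), over 6 libraries. These 3 genes varied over a narrower range than Cidec, Mrm1 between 8.70 and 12.1 TPM. G0s2 was followed most closely by Qdpr (r = 0.99), Grpel2 (r = 0.99) and Ube2v2 (r = 0.97). Qdpr spanned 37.9 to 41.6 TPM, a small range beside that of G0s2. With 6 libraries high values are common by selection from many genes, and 68 candidates for Cidec and 44 for G0s2 had an r above 0.9.

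Macrophages, which can store droplets coated with the protein of Plin2, were represented in the RNA. All 6 macrophage markers were highest in mKO replicate 2, the library with the highest Plin2. It was also the highest for 4 of 8 slow fibre markers, and the share over all genes was not counted. Summed TPM of the macrophage markers was 75.8, 137.8 and 111.3 in mKO libraries and 95.6, 101.3 and 87.1 in WT libraries, so the groups overlapped. Beside these sums, Plin2 stood at 25.0, 29.0 and 23.9 TPM in mKO and at 24.8, 25.5 and 22.1 TPM in WT. None of the macrophage markers was called, where 0.52% of all tested genes were, and none was listed at 0. Lyz2 was the most abundant at 78.2 ± 24.8 TPM in mKO and 67.8 ± 6.42 TPM in WT (SD, n = 3 each). Their part in the value of Plin2 was not tested. The 5 endothelial markers held no call either and summed to between 186.8 and 188.7 TPM in mKO and between 193.1 and 199.2 TPM in WT.

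Other droplet genes gave the same count of calls. Of 19 listed, 18 were matched by name and 17 were tested, with a median log2 fold change of −0.04. By limma 0 were called higher or lower, against 0.52% of all tested genes. At an unadjusted p under 0.05 there was 1, against 10.7% of all tested genes. The 1 was Fitm1, which codes for a muscle protein of the endoplasmic reticulum that promotes droplet formation. It measured 263.4, 263.3 and 255.9 TPM in mKO libraries and 286.8, 295.7 and 299.2 TPM in WT libraries. The mKO libraries all lay below the WT libraries, as in 2 of the 17, Fitm1 and Faf2, and in 10.3% of all tested genes. The log2 fold change of Fitm1 was −0.17 (SE 0.04, unadjusted p = 0.00484, adjusted p = 0.201, limma). Its relative Fitm2 averaged 89.2 ± 0.835 TPM in mKO and 91.5 ± 3.31 TPM in WT, and Lpl, the lipase that frees fatty acids from circulating lipoproteins, 583.3 ± 40.4 TPM in mKO and 594.7 ± 44.3 TPM in WT (SD, n = 3 each). Cidea, a relative of Cidec known from brown fat, averaged 12.0 ± 4.44 TPM in mKO and 8.90 ± 1.15 TPM in WT (adjusted p = 0.688, limma).

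In the synthesis of triacylglycerol, 1 of 18 tested genes fell and 0 rose by limma, with a median of −0.07, while 0.423% of all tested genes were called lower and 0.0976% higher. At an unadjusted p under 0.05 there were 4 of the 18, against 10.7% of all tested genes. The gene was Gpd1, whose enzyme makes glycerol 3-phosphate, the backbone of triacylglycerol, and also serves the transfer of cytosolic NADH electrons to mitochondria. It fell to 26.9, 22.4 and 26.6 TPM in mKO libraries, against 62.5, 64.9 and 60.2 TPM in WT libraries. The groups lay far apart, with a log2 fold change of −1.28 (SE 0.08, limma adjusted p = 0.000742). The call held in all 13 other settings, with adjusted p-values from 0.000399 to 0.0145. The other 3 at an unadjusted p under 0.05 were acyl-CoA synthetases, Acsl3 at 0.32 on the log2 scale (adjusted p = 0.412, limma), Acsl4 at −0.24 (adjusted p = 0.353) and Acsl6 at −0.26 (adjusted p = 0.304). For Acsl4 and Acsl6, as for Gpd1, all mKO libraries lay below all WT libraries, which makes 3 of the 18, against 10.3% of all tested genes. For Acsl3 the groups overlapped. Acsl1, the main acyl-CoA synthetase of muscle, averaged 145.8 ± 12.6 TPM in mKO and 145.9 ± 9.52 TPM in WT, and the acyltransferase Gpam, which starts the pathway, 99.4 ± 11.6 TPM in mKO and 104.0 ± 16.0 TPM in WT (SD, n = 3 each), both without a call. Lpin1, whose enzyme makes diacylglycerol, stood at −0.29 on the log2 scale (limma adjusted p = 0.503).

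**Figure D4:**
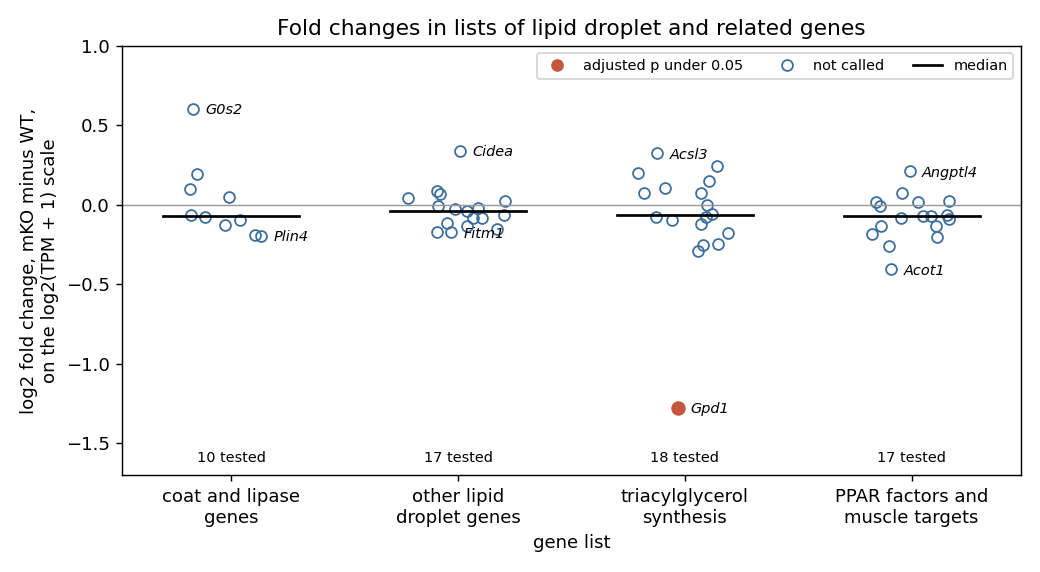
Log2 fold change, mKO minus WT, of each tested gene of the coat and lipase genes and of 3 lists of related genes, with a bar at each median, a filled point for a gene with adjusted p under 0.05 and the lowest and highest gene of each list named. Gpd1 (−1.28) is the only filled point among the 4 lists, and the highest point is G0s2 (0.61).

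Peroxisome proliferator-activated receptors (PPARs) are nuclear receptors that sense fatty acids and are known to drive several perilipin genes, Pnpla2 and G0s2. Of 17 tested genes for PPARs, their partners and muscle targets, 0 were called by limma, against 0.52% of all tested genes. Their median was −0.07. At an unadjusted p under 0.05 there was 1 of the 17, against 10.7% of all tested genes. It was the fatty acid oxidation gene Acadvl, at −0.13 on the log2 scale (unadjusted p = 0.0308 and adjusted p = 0.397 by limma). It averaged 496.5 ± 16.1 TPM in mKO and 543.5 ± 18.4 TPM in WT (SD, n = 3 each). In 2 of the 17, Acadvl among them, all mKO libraries lay below all WT libraries, as in 10.3% of all tested genes. Pdk4, a fasting-responsive target that shuts pyruvate out of oxidation, measured 787, 1190 and 753 TPM in mKO libraries and 1023, 1235 and 537 TPM in WT libraries. It was spread widely within both groups. Fabp3, the muscle fatty acid binding protein, averaged 3728 ± 313 TPM in mKO and 3669 ± 26.7 TPM in WT, and the uptake protein Cd36 548.3 ± 30.3 TPM in mKO and 519.4 ± 4.78 TPM in WT (SD, n = 3 each).

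Of the 10 coat and lipase genes, 8 had at least 1 promoter window in the RefSeq table of build GRCm38.p6, a window of 300 bases with 250 before the start site. The motif AGGTCA, the repeated unit of the direct repeat bound by PPARs, was searched on both strands. It was found in 3 of the 11 windows of these genes and in 16.3% of all 32851 windows. The 3 windows belong to 2 of the 8 genes, Plin2 and Plin5. The full direct repeat AGGTCANAGGTCA, which contains this motif, was in none of the 11 windows of these genes and in 0.0396% of all windows. Both promoters are shown with the motif in capitals, since Plin2 and Plin5 are the perilipins in which it was matched. A match is a description of letters, not a bound site. The Plin2 window is chr4:86670010-86670309 and the Plin5 window chr17:56117499-56117798, both read on the minus strand.
Plin2: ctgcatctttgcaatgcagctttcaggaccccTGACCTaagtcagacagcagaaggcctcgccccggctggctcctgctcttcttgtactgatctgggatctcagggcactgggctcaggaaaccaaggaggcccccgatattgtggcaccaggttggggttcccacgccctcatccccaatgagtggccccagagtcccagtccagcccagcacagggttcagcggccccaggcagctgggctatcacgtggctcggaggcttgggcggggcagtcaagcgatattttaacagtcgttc
Plin5: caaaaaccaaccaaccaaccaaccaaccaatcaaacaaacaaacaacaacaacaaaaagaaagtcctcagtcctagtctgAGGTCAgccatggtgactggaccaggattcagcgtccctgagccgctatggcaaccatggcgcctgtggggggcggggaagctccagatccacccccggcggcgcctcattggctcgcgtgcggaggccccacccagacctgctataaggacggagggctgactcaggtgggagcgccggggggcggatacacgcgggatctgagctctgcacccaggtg
In Plin2 the match starts 218 bases before the start site and lies on the reverse strand, and in Plin5 it starts 170 bases before and lies on the forward strand. A further Plin5 window, at chr17:56117249-56117548, has a match starting 13 bases after its start site. The genes of both promoters had levels that overlapped between mKO and WT, as did the 6 genes whose windows held no match.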

How the data were processed

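The authors deposited 1 table of TPM (transcript abundance scaled by gene length) per library, per the file headers, and each table had the same sum over its 43074 gene names. Libraries were poly(A)-selected and directional, per the labels' protocols. The submitters' processing notes name genome build GRCm39, with no role given. The aligner, counter and strand setting are not stated in these sources.

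Genotype was tested with limma-trend (version 3.58.1, under R 4.3.3), two-sided, on log2(TPM + 1) of 12301 genes, those reaching 1 TPM in 3 or more libraries, with Benjamini-Hochberg adjustment over all of them and a threshold of 0.05. All 10 genes described passed the filter. Changes of low genes are understated on this scale. Reads were recovered from TPM with exon lengths of GENCODE M21 and a single factor per library, and came out whole (to within 0.05) for 93.1% of 22729 genes, but not for Plin4. These reads served for depth and limma-voom. Counting errors cover counting only and take every recovered read as independent. Of recovered values above 0, 58.6% were even. If reads were counted in pairs, which was not tested, these errors are understated.

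The genes and the lists were chosen with earlier results of these data known. Named genes were the 10, Stard7, as many as 4 called genes per list or else up to 3 with the highest mean TPM, and the 3 genes most correlated with each of the 10 that spanned at least 1 on the log2 scale. Adipoq, Plin1, Abhd5, Mgll, Acadvl, Lpin1, Acsl1, Acsl3, Acsl4, Acsl6, Adig, Adrb3, Gpam, Ucp1, Elovl3, Faf2 and Hdgfl2 fall outside this rule and were picked once their values were known. Cidea falls within it as a brown adipocyte marker but not as one of the other droplet genes. Not every gene that the rule allows is printed. Of the listed names 1 was read under an older name and 1 was not matched. Promoters came from RefSeq by symbol. Alternatives were another pseudocount, 2 other filters, mitochondrially encoded genes left out, median-of-ratios scaling, a replicate block, limma-voom and each library left out. The test was checked on simulated reads that gave every gene the same spread, with planted changes larger than those of the 10 genes. That check does not bear on how well changes of their size are found.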

Additional observations from a re-analysis of the deposited data

How the results depend on the processing

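Of 129 values of the 10 genes over 13 other settings, 10 changed sign and 1 passed the threshold. The labels give both groups replicate numbers 1 to 3 without saying that a number marks a pair. The deviations of same-numbered libraries correlated at 0.095, 0.0474 and 0.131 over tested genes, and every library correlated best with its own number. Deviations were taken from the mean of each group of 3, so these correlations depend on each other and cannot show pairs. Whether the numbers mark pairs was not tested. With the replicate block, limma called 1 of the 10 genes, G0s2 (log2 fold change 0.61, adjusted p = 0.0246), and 21 genes in all, 5 higher and 16 lower in mKO. Without the block it called 64 genes, 12 higher and 52 lower, and 0 of the 10. In TPM, G0s2 was 1.608, 1.493 and 1.501 times as high in mKO as in WT of replicate numbers 1, 2 and 3.

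With mitochondrially encoded genes left out, the median of all genes moved to 0.09, beside −0.01, and that of the 10 genes to 0.05. Plin3 (0.0397), Plin5 (0.0192) and Pnpla2 (0.0542) then lay above 0 but below the median of all genes, and 41 genes were called, 21 higher and 20 lower. With no filter 6 were called, 2 higher and 4 lower, and Stard7 (−1.83) lost its call at an adjusted p of 0.0858. Limma-voom called 92, 35 of them higher. Leaving out each library in turn gave 4 to 94 calls, 1 to 18 higher and 3 to 76 lower, and 0 of the 10 genes in each case. The ranges were −0.25 to 0.0286 for Plin3, −0.27 to 0.11 for Plin5, −0.25 to 0.0347 for Lipe, −0.33 to 0.0841 for Cidec, −0.33 to −0.10 for Plin4, 0.0180 to 0.15 for Plin2, 0.14 to 0.30 for Dgat2, 0.36 to 0.81 for G0s2 and −2.05 to −1.72 for Stard7, which without WT replicate 2 did not pass (−1.81, adjusted p = 0.0703). The cause of these changes was not tested. Apart from limma-voom on recovered reads, no test written for counts was run, since the tables hold TPM. With 3 libraries per group, intervals of the fold change reach from 0.578 for Cidec to 2.22 for G0s2.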
